A study of Mus musculus with 52 samples.

Results

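The genes described here are the 4 early growth response (Egr) zinc-finger factors, Egr1, Egr2, Egr3 and Egr4, and their corepressors Nab1 and Nab2. They were taken by symbol from the gene tables, and all 6 were found among 21999 genes. All 6 also passed the filter on low counts in both experiments, in which 14524 and 15001 genes were tested.

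Egr proteins bind a GC-rich DNA element through zinc fingers, and their genes are immediate early genes: they are transcribed within minutes of a stimulus, without new protein synthesis. In neurons they are switched on through calcium, ERK and CREB signalling and through serum response factor. Nab1 and Nab2 bind Egr1, Egr2 and Egr3 and repress transcription from their sites, and Nab2 is itself known as an Egr-inducible gene, which makes a feedback loop. Egr4 is the most divergent member. In the suprachiasmatic nucleus (SCN), the hypothalamic clock that receives input from the retina, light in the subjective night is known to induce Egr1.

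The study sequenced mRNA from SCN of male mice aged 11 to 12 weeks, with 6 pairs of SCN pooled in each library. In the light-pulse experiment wild-type mice stayed in darkness until circadian time 17 (CT17), giving 4 libraries, or until CT23, giving 2. Other wild-type mice received light from CT17 onward. The light lasted 0.5 h in 4 libraries and 1 h, 3 h or 6 h in 2 each. These were collected at CT17.5, CT18, CT20 and CT23 in that order, and dark groups were collected only at CT17 and CT23. Except at 6 h against CT23, effects of light and of circadian time cannot be told apart in comparisons of light libraries in this experiment. In the Npas4 experiment, Npas4-/- mice and wild-type littermates were kept dark or given 1 h of light at CT17, with 3 libraries per group. NPAS4 is a neuronal activity-dependent transcription factor, and these libraries are called Npas4 null below, as labelled. Chromatin immunoprecipitation with sequencing (ChIP-seq) was done on wild-type SCN, with 2 pairs of SCN per sample, in the dark and after 1 h of light.

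Libraries of the light-pulse experiment held 12477382 to 15369985 gene counts, except the 4 whose names end in s (2 dark CT17, 2 at 0.5 h), which held 27413860 to 30149286. Those of the Npas4 experiment held 26638939 to 32097975. The 1 h, 3 h and 6 h libraries were all labelled batch 2, where every dark CT17 library carried the suffix s, so batch and suffix could be separated only through other groups. The meaning of the suffix is not given, nor whether libraries 1 and 1s, or 2 and 2s, share a source. They are counted below as separate libraries. No marker of SCN neurons was at 0 in a whole group, and the summed SCN neuron markers lay between 1100 and 1510 CPM (counts scaled to a fixed library size) in the light-pulse libraries. Summed meningeal fibroblast markers reached 987 CPM in replicate 2 at 0.5 h, 446 in replicate 2s at 0.5 h and 318 in dark CT17 replicate 2s. In every other light-pulse library that sum was at most 118 CPM. Summed oligodendrocyte markers were 7833 to 9192 CPM in the dark at CT17 and 4262 to 6259 CPM after 1 h of light. The part of these differences in the results below was not tested, except that each light-pulse count of called genes was also made without the 3 libraries richest in meningeal markers. Nothing in the labels says that libraries came from separate days or cohorts, and p-values then reflect only how much these particular libraries vary. In such pooled tissue, more responding cells and more RNA per cell cannot be told apart.

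All 4 Egr genes were higher after 0.5 h of light than in the dark at CT17. CPM were computed from the deposited counts with TMM scaling, and tests used edgeR's quasi-likelihood model over all genes, with Benjamini-Hochberg adjustment and a threshold of 0.05. Egr1 stood at 10.2, 19.4, 14.6 and 18.9 CPM in the 4 dark CT17 libraries and at 567, 582, 424 and 507 CPM after 0.5 h. The groups lay far apart, and the log2 change was 5.03 ± 0.15 (SE, n = 4 and 4, edgeR adjusted p = 5.14e-12).

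Egr2, a factor known from hindbrain patterning and myelination, was barely present in the dark, with 0.225, 0.290, 0.371 and 0.260 CPM, or 3 to 9 reads a library. After 0.5 h it stood at 25.3, 18.4, 21.0 and 17.6 CPM. Its log2 change of 6.09 ± 0.21 (edgeR adjusted p = 3.95e-11) was the largest of the 6 genes in this comparison. Egr3, known for roles in synaptic plasticity, rose from 1.199, 1.51, 0.519 and 1.43 CPM to 24.5, 31.4, 16.3 and 24.8 CPM, a log2 change of 4.34 ± 0.19 (edgeR adjusted p = 1.12e-09). Egr4 rose from 0.375, 0.290, 0.297 and 0.260 CPM to 9.45, 9.72, 9.97 and 7.91 CPM, a log2 change of 4.92 ± 0.24 (edgeR adjusted p = 6.31e-09). For each of the 4 genes the light libraries lay above every dark library.

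Neither corepressor was called at this time. Nab1 stood at 39.0, 44.0, 36.1 and 42.1 CPM in the dark and at 40.2, 43.0, 38.0 and 44.8 CPM after 0.5 h, with overlapping groups and a 95% interval of the log2 change from -0.07 to 0.16. Nab2 stood at 7.19, 8.66, 6.60 and 9.95 CPM in the dark and at 8.38, 12.7, 9.82 and 11.9 CPM in light. Its groups overlapped, and its log2 change of 0.40 ± 0.10 did not pass the test (edgeR adjusted p = 0.289). Within each label batch, however, both light libraries lay above both dark ones for Nab2, with a log2 ratio of mean CPM of 0.40 in batch 1 and 0.40 in batch 2. The same ratios were 5.32 and 4.83 for Egr1, 6.28 and 6.03 for Egr2, 4.57 and 4.25 for Egr3 and 4.85 and 5.003 for Egr4.

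In all, 4 of the 6 genes were called higher at 0.5 h, against 0.427% of all genes tested, and none was called lower. Ranked by log2 change among 14524 genes, Egr2 was at place 3 and Egr1 at place 4. The 4 calls were also made without the 3 libraries richest in meningeal markers.

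**Figure D1:**
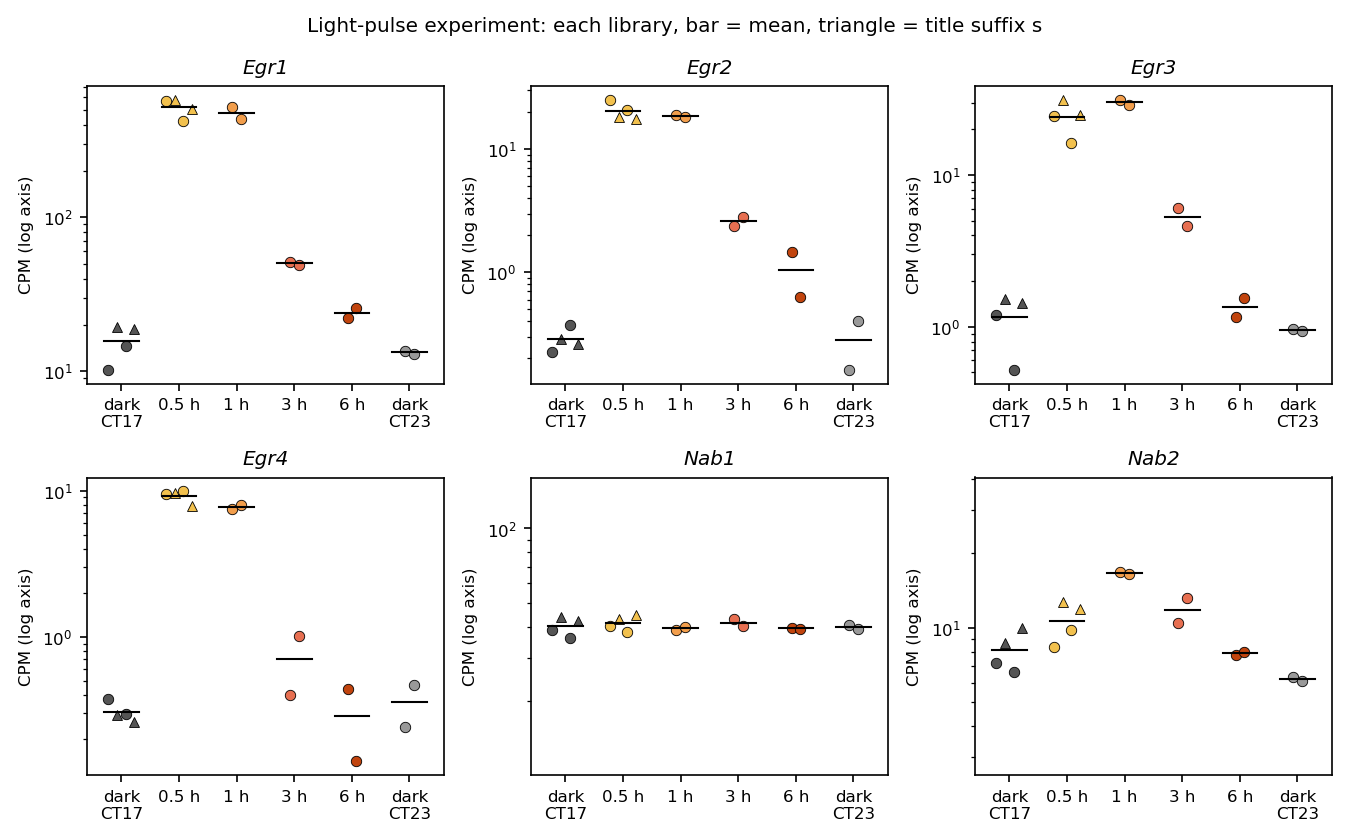
Normalised level (CPM, log axis) of the 4 Egr genes and Nab1 and Nab2 in each light-pulse library, by group; bars are group means and triangles are libraries with the name suffix s. The Egr genes are high at 0.5 h and 1 h and fall by 3 h, Nab2 peaks at 1 h, and Nab1 stays between 36.1 and 44.8 CPM.

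After 1 h of light Nab2 had joined the Egr genes. It stood at 16.9 and 16.6 CPM, above all 4 dark CT17 libraries, with a log2 change of 0.88 ± 0.13 (n = 2 and 4, edgeR adjusted p = 0.00119). When the suffix replaced label batch in the model, this change was 1.28 (edgeR adjusted p = 7.23e-06). Nab2 was also higher than at 0.5 h, by a log2 change of 0.48 ± 0.13 (edgeR adjusted p = 0.0413), which was 0.88 ± 0.12 with the suffix term (0.00137). It was the only one of the 6 genes called between those times, where 4.05% of all genes were called higher, and the call was lost in 10 of the 16 fits that left out 1 library. Its edgeR adjusted p was 0.214 without 1 h replicate 1, 0.158 without 1 h replicate 2, and 0.159 without 0.5 h replicate 2s. It was 0.0502 to 0.0808 without 0.5 h replicate 1 or 1s, dark CT17 replicate 1, 1s or 2s, or 6 h replicate 1 or 2. With no filter on low counts it was 0.0521, and with no batch term 0.167. Without the 3 libraries richest in meningeal markers its adjusted p was 0.145.

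No change of an Egr gene was called between 0.5 h and 1 h. Egr1 stood at 523 and 435 CPM at 1 h, Egr2 at 19.1 and 18.2, Egr3 at 31.4 and 29.1, and Egr4 at 7.53 and 7.99. Against dark CT17 their log2 changes were 4.78 ± 0.16, 6.11 ± 0.24, 4.44 ± 0.22 and 4.72 ± 0.29 in that order. The 95% intervals of the log2 difference from 0.5 h were -0.59 to 0.09 for Egr1, -0.36 to 0.39 for Egr2, -0.31 to 0.50 for Egr3 and -0.71 to 0.30 for Egr4. With the suffix term Egr3's difference was 0.60 ± 0.18, outside that interval, and did not pass (edgeR adjusted p = 0.321), and those of Egr2 and Egr4 were -0.30 ± 0.17 and -0.34 ± 0.23. Nab1 stood at 38.9 and 40.0 CPM. In total 5 of the 6 genes were called higher at 1 h against 4.39% of all genes, a share that was 1.11% with the suffix term, under which the same 5 genes passed. Within label batch 2 alone the log2 changes were 4.64 for Egr1, 6.05 for Egr2, 4.35 for Egr3, 4.78 for Egr4 and 0.84 for Nab2.

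By 3 h the Egr genes had fallen steeply although the light was still on. Egr1 stood at 51.3 and 49.0 CPM, and its fall from 1 h was -3.26 ± 0.19 in log2 (n = 2 and 2, edgeR adjusted p = 1.33e-07). The changes were -2.83 ± 0.23 for Egr2, which stood at 2.38 and 2.84 CPM, and -2.51 ± 0.23 for Egr3, at 6.04 and 4.58 CPM. Egr4, at 0.397 and 1.02 CPM, changed by -3.42 ± 0.33. These 4 were called lower between 1 h and 3 h, against 0.578% of all genes. Nab2 stood at 10.5 and 13.2 CPM, below both 1 h libraries, but its change of -0.50 ± 0.15 did not pass the test (edgeR adjusted p = 0.174).

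The 3 h levels were still above those in the dark at CT17 for part of the family. Against dark CT17, Egr2 was higher by a log2 change of 3.28 ± 0.30 (edgeR adjusted p = 1.15e-05), Egr3 by 1.92 ± 0.25 (edgeR adjusted p = 0.000356) and Egr1 by 1.52 ± 0.17 (edgeR adjusted p = 7.29e-05). These 3 calls compare with 6.4% of all genes called higher. Egr4, with 5 to 14 reads a library, had a change of 1.29 ± 0.42 that did not pass (edgeR adjusted p = 0.0574), though DESeq2 called it (adjusted p = 0.0478). Without 3 h replicate 2 its change was 0.45, and without replicate 1 it was 1.80 with an edgeR adjusted p of 0.0287, and the remaining 3 h library is then assumed to vary like the other groups. Its call was also gained without dark CT23 replicate 1 or 2 (0.0320 and 0.0327) or 6 h replicate 1 or 2 (0.0444 and 0.0442), and with the replicate number as a block (0.0499). With the suffix term Egr4's change was 1.16 ± 0.42 and did not pass (edgeR adjusted p = 0.177). Nab2 had a change of 0.38 ± 0.14 (edgeR adjusted p = 0.0799), which was 0.78 with the suffix term (edgeR adjusted p = 0.00173), and its libraries lay above all dark CT17 libraries. Nab1, at 43.0 and 40.3 CPM, had a change of -0.02 ± 0.07.

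Between 3 h and 6 h Egr1 and Egr3 fell further. Egr1 reached 22.2 and 25.8 CPM, a log2 change of -1.06 ± 0.19 (edgeR adjusted p = 0.0218), and Egr3 reached 1.17 and 1.54 CPM, a change of -1.96 ± 0.31 (edgeR adjusted p = 0.00787). These were 2 genes called lower against 0.324% of all genes. The Egr1 call was lost when any 1 of the 4 libraries compared was left out (edgeR adjusted p = 0.124 to 0.315) and with no batch term (0.0624). That of Egr3 was lost without 3 h replicate 1 (0.0954), 6 h replicate 1 (0.154) or 6 h replicate 2 (0.0663). Egr2 stood at 1.46 and 0.630 CPM at 6 h, a change of -1.33 that did not pass (edgeR adjusted p = 0.104) but was called without 6 h replicate 1 (-2.04, 0.0357). Egr4 stood at 0.437 and 0.1401 CPM. Nab2 stood at 7.79 and 7.98 CPM and Nab1 at 39.7 and 39.1.

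After 6 h of light the genes were compared with the dark group of the same circadian time, CT23. There Egr1 stood at 13.6 and 12.9 CPM, Egr2 at 0.161 and 0.402, Egr3 at 0.965 and 0.939 and Egr4 at 0.241 and 0.470. Nab2 stood at 6.35 and 6.10 CPM and Nab1 at 40.6 and 39.2. None of the 6 genes was called by edgeR, against 1.01% of all genes called in either direction. At an unadjusted p under 0.05 there were 2, Egr1 and Egr2, and DESeq2 called 1, Egr1 (log2 change 0.72, adjusted p = 0.0308). Of all genes, 10.7% had such an unadjusted p and DESeq2 called 1.65%. Egr1, Egr2, Egr3 and Nab2 lay higher in both light libraries than in both dark ones, a split not counted over all genes. For Egr3 and Nab2 the log2 changes were only 0.30 ± 0.42 and 0.17 ± 0.17 (edgeR adjusted p = 0.893 and 0.822). Egr1 and Egr2 had log2 changes of 0.73 ± 0.22 (edgeR adjusted p = 0.186) and 1.94 ± 0.48 (edgeR adjusted p = 0.08). Egr2 was called without dark CT23 replicate 2 (log2 change 2.97, edgeR adjusted p = 0.0295) or 6 h replicate 2 (2.42, 0.0209). Egr1 was called within label batch 2 (log2 change 0.90, edgeR adjusted p = 0.026), a fit in which dark CT23 has 1 library and is assumed to vary like the other groups.

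The genes were also compared between the circadian times in darkness. Between dark CT23 and dark CT17 edgeR called none of the 6, against 0.475% of all genes in either direction. At an unadjusted p under 0.05 there was 1, Nab2, with a log2 change of -0.37 ± 0.14, where 17.4% of all genes reached that level. DESeq2 called 0 and gave no adjusted p for 4 of them. Within label batch 2 alone the changes were -0.57 for Egr1 and -0.61 for Nab2, again with 1 CT23 library. There both dark CT17 libraries carried the suffix s and the CT23 library did not, so time and suffix cannot be told apart. Without dark CT23 replicate 1 Nab2's change was -0.60, which rests on the same CT23 library. With the suffix term over all libraries the changes were -0.10 for Egr1 and -0.15 for Nab2 (edgeR adjusted p = 0.892 and 0.743).

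Levels can be compared between genes on the deposited RPKM scale, which divides by gene length. In the dark at CT17 Nab1 was the most abundant of the 6, at 9.95 ± 1.04 RPKM (SD, n = 4), followed by Egr1 at 3.57 ± 1.02 and Nab2 at 2.79 ± 0.56, whose ranges overlapped. Egr3 at 0.837 ± 0.334, Egr4 at 0.144 ± 0.022 and Egr2 at 0.0851 ± 0.0174 followed, without overlap between neighbours. At 0.5 h the order was Egr1 at 118 ± 17.01 RPKM, Egr3 at 17.52 ± 4.70, Nab1 at 10.3 ± 1.0, Egr2 at 6.16 ± 0.88, Egr4 at 4.39 ± 0.38 and Nab2 at 3.73 ± 0.77. The ranges of Egr4 and Nab2 overlapped there. The lengths implied by the counts and RPKM were 4484 bases for Egr1, 3398 for Egr2, 1416 for Egr3 and 2148 for Egr4. Egr1's exceeds its RefSeq gene span of 3750 bases, so its RPKM rests on a longer gene model.

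Egr1 made up most of the family's signal throughout. Its share of the summed RPKM of the 4 Egr genes was 76.6 ± 6.8% in the dark at CT17, 80.9 ± 0.5% at 0.5 h and 69.8 ± 1.2% at 3 h. The ratio of summed Nab to summed Egr RPKM was 2.84 ± 0.51 (SD, n = 4) in the dark at CT17. It was 0.0970 ± 0.0129 at 0.5 h, 0.112 ± 0.013 at 1 h, 0.885 ± 0.055 at 3 h and 1.83 ± 0.14 at 6 h, against 3.06 ± 0.08 in the dark at CT23. No dark library of this experiment had a ratio under 2.43, and none at 0.5 h or 1 h had one over 0.121. This is a ratio of transcripts, and protein was not measured.

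**Figure D2:**
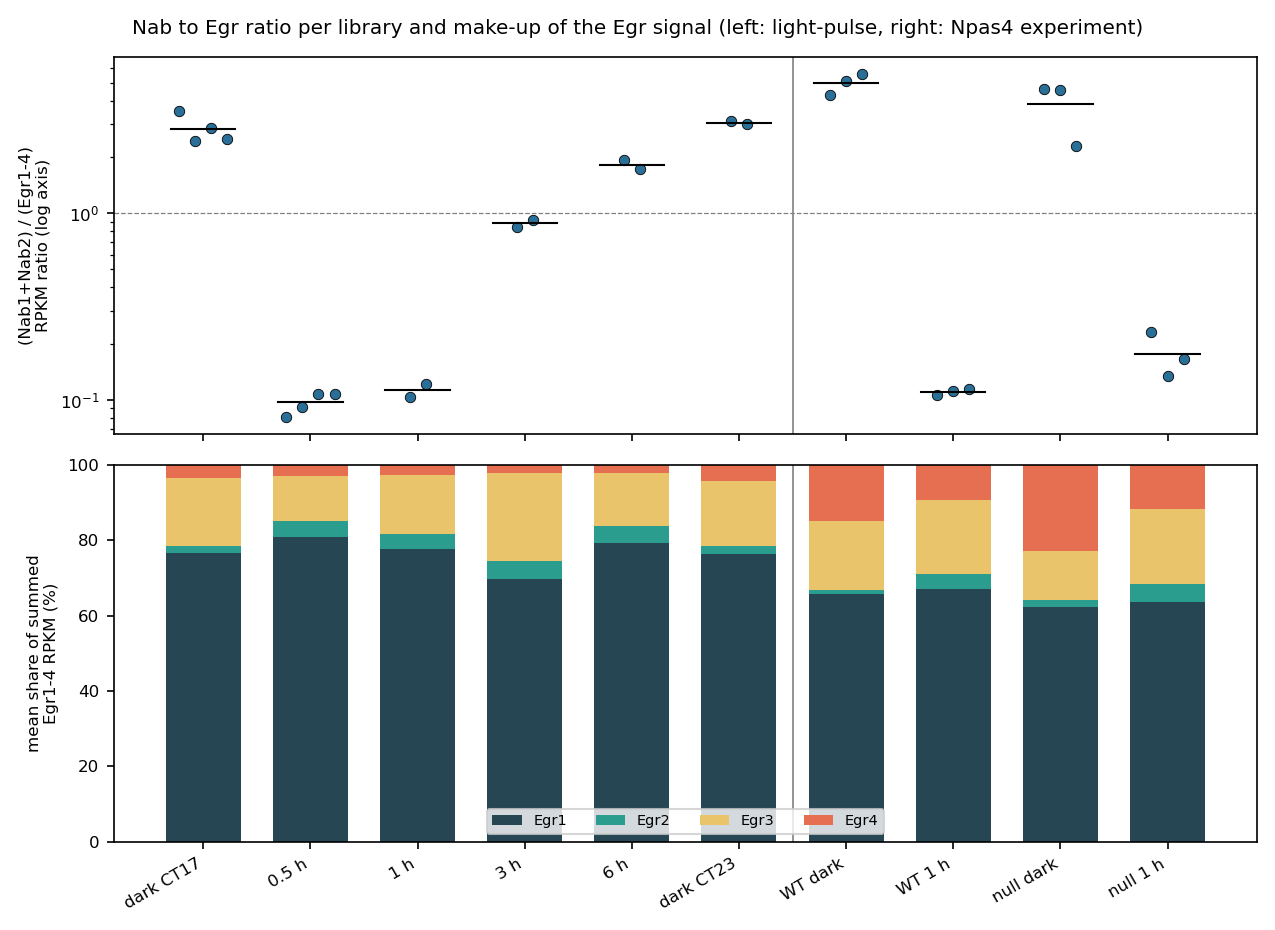
Above, the ratio of summed Nab1 and Nab2 RPKM to summed Egr1 to Egr4 RPKM in each library (log axis, bars are group means, dashed line at equal levels); below, the mean share of each Egr gene in the summed Egr RPKM. The ratio falls from 2.84 in the dark at CT17 to 0.0970 at 0.5 h and is 1.83 at 6 h. Egr4 has a larger share in the Npas4 experiment. A share is taken within a library, so scaling between libraries does not enter it, and the cause was not tested.

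Npas4 itself was still counted in the libraries labelled null. In the dark it stood at 8.64, 8.20 and 8.34 CPM in wild-type libraries and at 5.27, 10.1 and 10.4 in null libraries. In light it stood at 13.7, 10.7 and 13.996 CPM in wild-type and at 4.55, 7.63 and 5.19 CPM in null libraries. The log2 change of null against wild type was 0.04 in the dark (edgeR adjusted p = 0.989) and -1.14 in light (edgeR adjusted p = 0.0663). Which part of the gene the null allele lacks is not given in the sources used here, so counts outside that part check nothing, and directions below are for libraries as labelled.

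Wild-type littermates showed the same 5 genes higher after 1 h of light as the wild-type mice of the light-pulse experiment. Egr1 went from 9.26, 7.32 and 7.54 CPM in the dark to 627, 570 and 606 CPM in light, a log2 change of 6.23 ± 0.35 (n = 3 and 3, edgeR adjusted p = 3.94e-07). Egr2 went from 0.110, 0.0656 and 0.134 CPM, which is 2 to 4 reads a library, to 28.3, 24.0 and 25.7 CPM. Its fitted log2 change of 7.93 ± 0.39 (edgeR adjusted p = 1.3e-07) therefore rests on very few dark reads.

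Egr3 went from 0.622, 0.722 and 0.770 CPM to 61.5, 45.3 and 60.3 CPM, a log2 change of 6.29 ± 0.32 (edgeR adjusted p = 1.93e-07). Egr4 went from 1.06, 0.984 and 0.569 CPM to 48.2, 37.6 and 35.9 CPM, a change of 5.54 ± 0.32 (edgeR adjusted p = 3.94e-07). Nab2 went from 6.81, 7.45 and 5.86 CPM to 26.7, 21.8 and 26.8 CPM, a change of 1.90 ± 0.14 (edgeR adjusted p = 3.63e-06). These 5 of 6 compare with 2.23% of all genes called higher. Nab1 stood at 44.4, 44.9 and 49.7 CPM in the dark and at 55.7, 53.0 and 57.6 CPM in light, without overlap. Its change of 0.26 ± 0.06 did not pass (edgeR adjusted p = 0.0573), but passed with the replicate number as a block (edgeR adjusted p = 0.00329) with DESeq2 (adjusted p = 0.0105) and without dark wild-type replicate 3 (edgeR adjusted p = 0.0359).

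Libraries labelled Npas4 null also had higher Egr genes in light. Egr1 went from 10.7, 8.83 and 22.4 CPM to 239, 475 and 370 CPM, a log2 change of 4.69 ± 0.33 (n = 3 and 3, edgeR adjusted p = 4.11e-06). Egr2 went from 0.216, 0.288 and 0.471 CPM to 12.6, 26.6 and 21.6 CPM, a change of 5.94 ± 0.34. Egr3 went from 0.541, 0.577 and 1.85 CPM to 26.1, 42.4 and 37.1 CPM, a change of 5.15 ± 0.31.

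Egr4 went from 1.66, 2.20 and 2.97 CPM to 21.4, 42.6 and 31.0 CPM, a change of 3.80 ± 0.28. Nab2 went from 8.66, 6.02 and 8.37 CPM to 17.02, 20.2 and 19.5 CPM, a change of 1.30 ± 0.14 (edgeR adjusted p = 0.000196). In total 5 of 6 were called higher, against 1.45% of all genes. Nab1 stood at 56.3, 57.1 and 62.3 CPM in the dark and at 57.2, 61.4 and 61.0 CPM in light, with overlap and a 95% interval of the log2 change from -0.11 to 0.17.

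**Figure D3:**
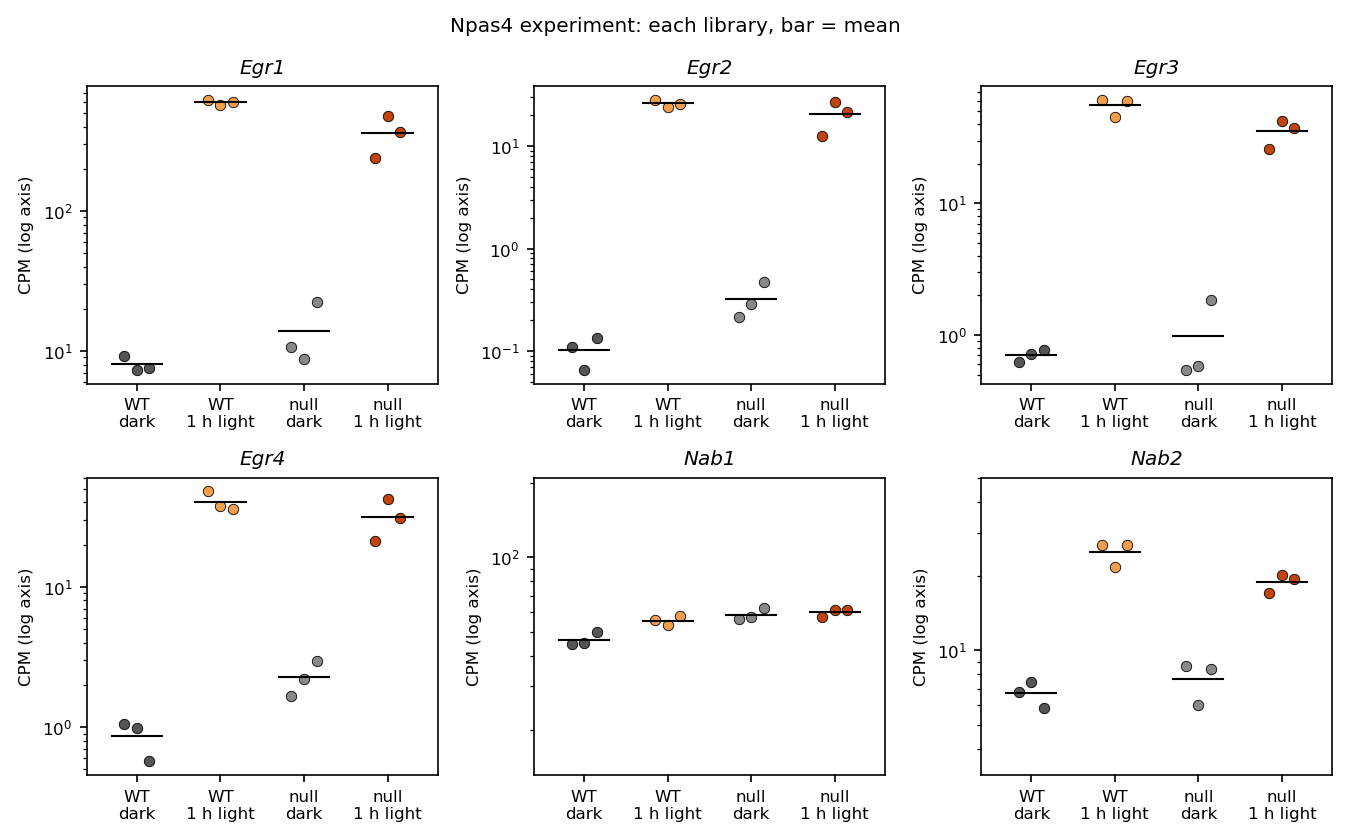
Normalised level (CPM, log axis) of the 6 genes in each library of the Npas4 experiment, with bars at group means. All Egr genes and Nab2 are higher in light in both genotypes; in null light, replicate 1 is the lowest of its group for each of the 6 genes.

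The estimated light response was smaller in the null libraries for each of the 6 genes, but the difference between genotypes did not pass the test. As null minus wild type, the log2 differences of response were -1.53 ± 0.43 for Egr1, -1.98 ± 0.83 for Egr2, -1.14 ± 0.56 for Egr3, -1.74 ± 0.47 for Egr4, -0.23 ± 0.09 for Nab1 and -0.60 ± 0.20 for Nab2. All had an edgeR adjusted p of 1, and none was called, against 0.0133% of all genes in either direction. At an unadjusted p under 0.05 there were 5 of the 6, all except Egr3, and DESeq2 called 1, Egr4 (-1.74, adjusted p = 0.0145). Of all genes, 2.28% had such an unadjusted p and DESeq2 called 0.0733%. The 95% intervals ran from -2.46 to -0.61 for Egr1 and from -2.75 to -0.73 for Egr4. Fos, another immediate early gene, was called in the same test, at -1.88 ± 0.25 (edgeR adjusted p = 0.0453). Its mean was 21.7 CPM in dark null and 7.99 CPM in dark wild-type libraries, and 192 and 261 CPM in light. Its difference of response thus also holds a higher dark level in the null libraries.

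Each difference of response combines a dark and a light difference. In the dark, Egr4 was higher in every null library than in every wild-type library, with a log2 change of 1.39 ± 0.41 (edgeR adjusted p = 0.24, DESeq2 adjusted p = 0.00107). Egr2 was too, with 1.62 ± 0.80 (edgeR adjusted p = 0.587), and this split was not counted over all genes. Nab1 was the 1 gene edgeR called in the dark, higher in the null libraries by 0.34 ± 0.06 (edgeR adjusted p = 0.0293), against 0.433% of all genes called higher. That call was lost when any dark null library was left out (adjusted p = 0.0502 to 0.135), without dark wild-type replicate 1 or 2 (0.133 and 0.128), and when only the groups compared were fitted (0.239). It was also lost without null light replicate 2 or 3 or wild-type light replicate 1 or 3 (0.0541 to 0.0599). Egr3's difference in the dark was 0.48 ± 0.52 and became -0.34 without dark null replicate 3, its highest library. Summed SCN neuron markers were 2066 to 3186 CPM in dark null and 1525 to 2146 CPM in dark wild-type libraries, and their part in these values was not tested. Summed meningeal fibroblast markers were 259, 103 and 58.3 CPM in dark null replicates 1, 2 and 3 and 67.2 to 84.0 CPM in dark wild-type libraries. None of the 8 markers was called, and their median log2 change was 0.91 for null in the dark and -1.12 for the genotype difference. Without dark null replicate 1, the richest in them, the genotype differences were -1.70 for Egr1, -2.20 for Egr2, -1.43 for Egr3, -1.93 for Egr4, -0.26 for Nab1 and -0.51 for Nab2, again with none called. Those of null against wild type in the dark were then 0.96, 1.85, 0.78, 1.57, 0.37 and 0.10 in the same order.

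In light, edgeR called none of the 6 between genotypes, against 0.467% of all genes in either direction. There were 3 at an unadjusted p under 0.05, against 5.91% of all genes, and DESeq2 called 0, against 1.07%. Those 3, Egr1, Egr3 and Nab2, lay lower in every null library than in every wild-type one, a split not counted over all genes. Their log2 changes were -0.73 ± 0.27, -0.66 ± 0.21 and -0.41 ± 0.13 (edgeR adjusted p = 0.601, 0.393 and 0.393). Egr2 and Egr4 overlapped between genotypes, with changes of -0.36 ± 0.20 and -0.36 ± 0.21.

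**Figure D4:**
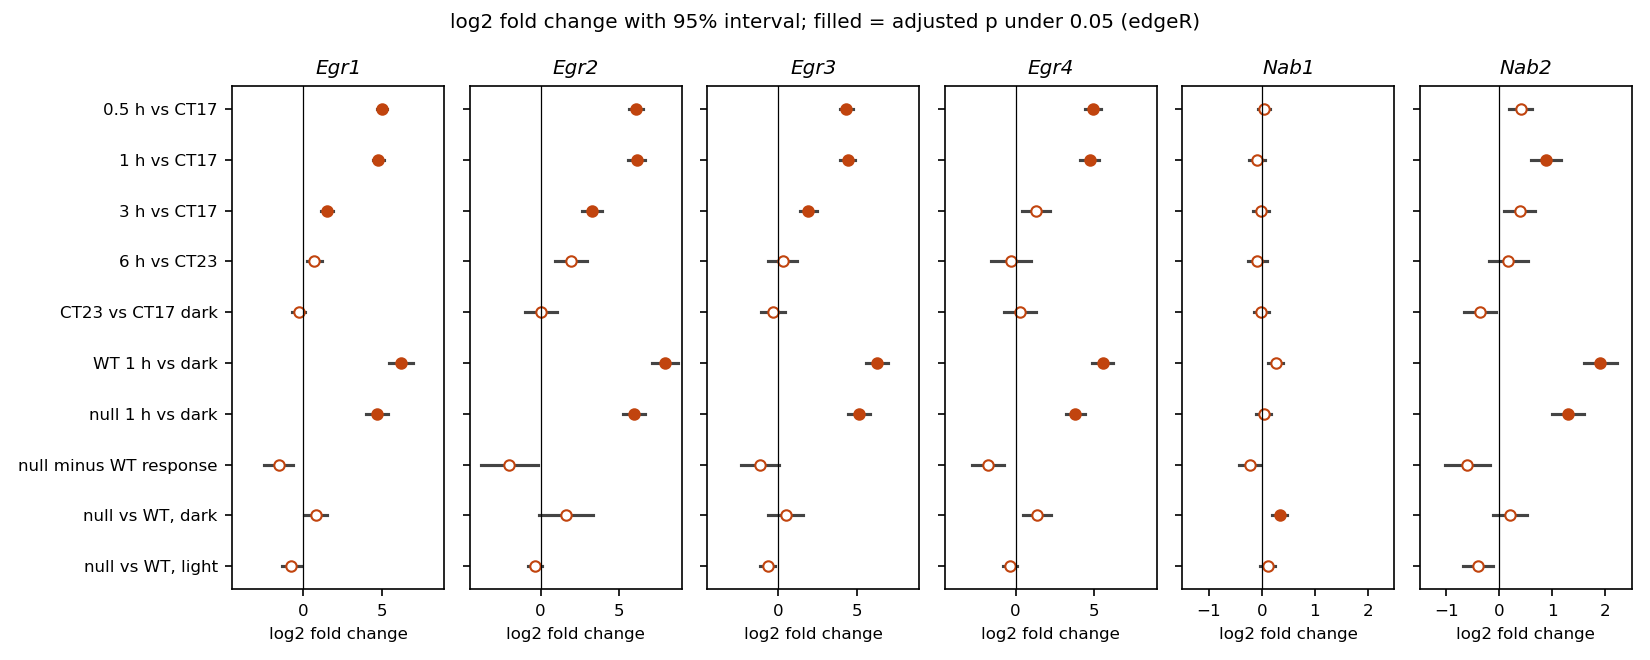
Log2 fold change of each gene (points, with 95% intervals) in 10 comparisons; filled points have an edgeR adjusted p under 0.05, and the horizontal scale of Nab1 and Nab2 is narrower than that of the Egr genes. The null minus wild-type points all lie below 0 and none is filled.

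The ratio of summed Nab to summed Egr RPKM was 5.02 ± 0.63 (SD, n = 3) in dark wild-type and 3.84 ± 1.33 in dark null libraries. In light it was 0.110 ± 0.004 in wild-type and 0.177 ± 0.050 in null libraries, and the light ranges did not overlap. Egr4 held 14.8 ± 3.8% of the summed Egr RPKM in dark wild-type and 22.8 ± 6.0% in dark null libraries. After 1 h of light Egr4 stood at 18.8 ± 3.1 RPKM in wild-type littermates and at 3.55 ± 0.16 RPKM (n = 2) in the light-pulse experiment. The implied gene length was 2148 bases in both experiments. Before scaling, Egr4 had 1085 to 1431 reads in libraries of 29858857 to 31038905 gene counts in the littermates. In the light-pulse experiment it had 99 to 107 reads in libraries of 13421290 to 13621147. These values are set side by side only, and the cause of the gap was not tested.

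Genes whose time course was most like each member were found over 5 groups against dark CT17, by the mean absolute difference of log2 changes. Egr1 was nearest to Egr4 (0.286), Egr3 (0.401) and the AP-1 subunit Junb (0.445). Egr2 was nearest to Fosb (0.261), followed by Junb (1.08) and Fos (1.10). Egr3 was nearest to Egr1, Egr4 and Junb, and Egr4 to Egr1, Egr3 and Junb. Nab2 was nearest to Dxo (0.0939), Tmem198 (0.113) and Dusp6 (0.129), a phosphatase of ERK, with 67 genes within 0.25. Nab1, which hardly moved, had 10832 genes within 0.25.

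Genes of the surrounding pathway were counted in the same fits, with label batch as the term in the light-pulse experiment. The lists were not recounted with the suffix term, under which 1.11% of all genes were higher at 1 h. Calls near the threshold may depend on that choice. Of 23 tested regulators upstream of Egr transcription, 2 were higher and 1 lower at 1 h in the light-pulse experiment, where 4.39% of all genes were higher and 3.99% lower. Their median log2 change was -0.03 against -0.01 over all genes. The cAMP-responsive repressor gene Crem was higher by 0.75 ± 0.12 (edgeR adjusted p = 0.00242), and the ternary complex factor gene Elk4 by 0.53 ± 0.15 (edgeR adjusted p = 0.0466). In wild-type littermates 3 of 23 were higher and 0 lower (2.23% of all genes were higher), Crem by 1.08, Elk4 by 0.99 and the serum response factor gene Srf by 0.61. In the null libraries the same 3 genes were higher, by 0.91, 0.62 and 0.51.

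Of 27 tested genes reported elsewhere as Egr targets, 1 was higher at 0.5 h, 3 were higher and 2 lower at 1 h, 7 were higher and 1 lower at 3 h, and 5 were higher and 0 lower at 6 h against CT23. Over all genes 0.427%, 4.39%, 6.4% and 0.723% were higher at those times, and 3.99% were lower at 1 h and 5.06% at 3 h. The median log2 change was 0.02, 0.07, 0.20 and 0.19 at those times, against -0.01, -0.01, -0.01 and 0.01 over all genes. The synaptic gene Arc was early, higher by 2.98 ± 0.08 at 0.5 h and 2.48 ± 0.10 at 1 h. The neuropeptide precursor gene Vgf was late, higher by 1.26 ± 0.14 at 1 h, 2.13 ± 0.14 at 3 h and 2.05 ± 0.17 at 6 h. Of the 13 genes of the NuRD complex, through which Nab proteins repress, 0 were higher and 1, Mbd2, was lower at 1 h (-0.26 ± 0.06, edgeR adjusted p = 0.0219), against 3.99% of all genes.

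Among 14 other GC-box zinc-finger genes, 2 were higher at 0.5 h, 3 at 1 h, and 5 in wild-type littermates, with none lower in those comparisons. The shares of all genes called higher there were 0.427%, 4.39% and 2.23%. Klf4 was higher by 1.87 ± 0.15 at 0.5 h and Klf10 by 1.16 ± 0.12 at 1 h. Among 9 genes for Egr binding or modifying partners, 1 was higher at 1 h, Hcfc1 by 0.48 ± 0.12, and 4 at 3 h, against 4.39% and 6.4% of all genes.

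Sequence upstream of the starts was read from RefSeq (GRCm38.p6, the assembly of mm10), as 250 bases before each start, for the 4 genes with an entry: Egr2, Egr4, Nab1 and Nab2. Motifs searched on both strands were the CArG box (bound by serum response factor), TGACGTCA (the full CREB site) and its part TGACG, GCGNGGGCG (an Egr site), GGAA (the ETS core) and TCGTG (bound by NPAS4 dimers). Of 32851 such windows, 1.47% held a CArG box, 1.55% TGACGTCA, 17.8% TGACG, 4.7% GCGNGGGCG, 93.4% GGAA and 13.3% TCGTG. The Egr4 window is shown because the gene was much higher after 0.5 h and 1 h of light, with its TGACG matches in capitals (written CGTCA on the strand shown). It lies at chr6:85513590-85513839 on the minus strand.
Egr4: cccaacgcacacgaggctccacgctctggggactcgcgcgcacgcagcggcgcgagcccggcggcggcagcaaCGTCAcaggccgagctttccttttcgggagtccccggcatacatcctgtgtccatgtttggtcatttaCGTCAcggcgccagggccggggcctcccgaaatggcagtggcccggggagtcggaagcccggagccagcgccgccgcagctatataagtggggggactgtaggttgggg
It held 2 TGACG matches and 1 TCGTG match, and neither a CArG box nor GCGNGGGCG. Egr2 has 5 listed starts, and the windows of 4 held a CArG box. Those of the starts at 67537869, 67537870 and 67537930 overlap and hold the same box, so these are not separate sites. The window of the start at 67537566 held another box. All these windows lie within the RefSeq span of Egr2. For the start at 67537869, the 30 bases that end 47 bases before it (chr10:67537793-67537822, plus strand) are shown, with a CArG box and then CGTCA in capitals.
Egr2: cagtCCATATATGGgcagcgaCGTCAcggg
Another TGACG lay further upstream of the same start. The Nab1 window was 80.8% G and C, against a median of 52.4% over all windows. The 4.7% given for GCGNGGGCG is therefore not a share at like base content. This window also lies within the RefSeq span of Nab1. Nab1, which did not move with light in the light-pulse experiment, had 3 GCGNGGGCG matches before its start at 52500448. They are shown in capitals on the minus strand, at chr1:52500573-52500597, chr1:52500541-52500565 and chr1:52500470-52500494.
Nab1 farthest: cccgcggcCGCCCACGCcgggatct
Nab1 middle: tcggccgcGCGTGGGCGggagccgg
Nab1 nearest: ggggcgggGCGGGGGCGgcggaggt
The Nab2 window (chr10:127666704-127666953, minus strand), upstream of the Nab gene that rose, held none of these motifs except GGAA. A match describes letters in this window only.

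Peak lists were compared at the same genes. They were called on 1 sample per mark and condition, so there is no replicate check, and fold values are the authors' own. The histone mark H3K4me3, typical of promoters, had a peak over all 6 genes in the dark and after 1 h of light. In the dark the highest fold over each gene was 38.5 for Egr1, 37.1 for Nab1, 23.8 for Egr2, 23.4 for Nab2, 17.3 for Egr4 and 13.8 for Egr3. In light it was lower for each of the 6, at 21.5, 32.7, 21.6, 12.5, 14.3 and 11.7 in the same order, from a list of 27551 peaks against 30410 in the dark. The median fold over the whole list was 12.8 in the dark and 14.8 in light. How many of all genes had a lower fold in light was not counted. Ranked by fold, Egr1's highest peak was in the top 17.7% of the list in the dark and 39.7% in light. These values were 19.8% and 20% for Nab1, 36.7% and 39.3% for Egr2, and 37.2% and 54% for Nab2. For Egr4 they were 44.2% and 50.9%, and for Egr3 48.6% and 55.4%. The covered part of Egr2 was 45.1% in the dark and 48.9% in light, and that of Egr4 61.4% and 65.5%.

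H3K27ac, which marks regulatory regions in use, had no listed peak over any of the 4 Egr genes in either list. The nearest one lay 590 bases from Egr1 in the dark and 595 in light, 6124 and 6258 bases from Egr2, 2038 and 17223 from Egr3, and 4746 and 4462 from Egr4. Nab1 carried 2 H3K27ac peaks in the dark and 4 in light, and Nab2 1 in each. Within 50 kb on either side of Egr1 there were 10 H3K27ac peaks in the dark list and 16 in the light list. For Egr2 there were 2 and 2, for Egr3 1 and 2, for Egr4 4 and 2, for Nab1 2 and 4, and for Nab2 13 and 15. The light list was also longer, with 40403 peaks against 38447. Of the 32851 starts read from RefSeq, 35.9% had an H3K27ac peak within 1 kb in the dark and 35.4% in light, and 49.4% and 48% had one of H3K4me3. Egr1 and Egr3 have no entry among these starts. Within 1 kb of their starts, Egr2 and Egr4 had 0 H3K27ac peaks in either list. Nab1 had 2 in the dark and 3 in light, and Nab2 had 1 and 2. Each of these genes had an H3K4me3 peak there in both lists.

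Nab2 overlaps Stat6 on the opposite strand by 70 bases, and Egr2 overlaps the long noncoding RNA gene Gm32255. Whether counting used strand is not given in the sources used here, so reads from those stretches are uncertain. The RefSeq positions are chr10:67534469-67542188 for Egr2, chr14:70077317-70082613 for Egr3, chr6:85511121-85513589 for Egr4, chr1:52455849-52500712 for Nab1 and chr10:127660918-127666703 for Nab2.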

How the data were processed

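Bulk mRNA sequencing of 28 libraries and 4 ChIP-seq peak lists were used. Per the labels, the tables hold raw gene counts and RPKM values that the authors deposited. The submitters' processing notes name STAR 2.7.1a, HTSeq 0.9.1, BWA 0.7.16a and MACS2 2.1.1 and build mm10, with no role given. The deposited peak lists give a fold enrichment ratio and −log10 p and q per peak, as the authors' values. The 18 single-nucleus samples were not analysed here, and 0 table columns lacked a sample.

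From the counts, edgeR 4.0.16 (filterByExpr, TMM, quasi-likelihood test, Benjamini-Hochberg adjustment over all tested genes, threshold 0.05) was fitted to all groups of each experiment, with label batch as a term in the light-pulse fits. DESeq2 1.42.0 was an alternative. On simulated counts 88.9% of genes changed by a log2 of 1 were recovered for 1 h of light, and 89.9% for light in wild-type littermates. The same simulations gave 13 and 10 false calls. These figures do not measure how the calls depend on the model term. At 1 h 4.39% of all genes were called higher with label batch and 1.11% with the suffix term. RPKM served for levels between genes only. Other alternatives were size factors, filter, batch, suffix, block and leaving out each library. Leaving out 3 libraries rich in meningeal markers, and a block by full library name for 0.5 h, were added after seeing the data.

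The members and lists were chosen with earlier results of these data known. Named genes are the 6 members, Npas4, Fos, the 3 genes nearest to each member and up to 3 called genes per list with the largest change. The 3 same-numbered pairs of wild-type dark and light libraries correlated in their deviations at 0.198 to 0.264, and those of dark null and dark wild type at 0.205 to 0.525. In the whole Npas4 experiment 16 of 18 same-numbered pairs correlated above 0.1, the lowest at -0.0134. Of 36 pairs with different numbers, 1 did. This pairing comes from the data, not the labels.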

Additional observations from a re-analysis of the deposited data

How the results depend on the processing

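Counts of the 6 genes called were recomputed under each alternative. With DESeq2, 1 was called at 6 h against CT23, 1 for the difference between genotypes and 2 for null against wild type in the dark. Between 1 h and 0.5 h, 0 were called with no filter on low counts, 0 with no batch term, and 0 without the 3 libraries richest in meningeal markers, an alternative chosen after seeing the data. With no batch term 1 was called between 6 h and 3 h. Label batch 2 alone gave 1 at 6 h and 2 for CT23 against CT17. Summing libraries of one number gave 1 at 6 h, and fitting only the groups compared gave 0 for null against wild type in the dark. Leaving out each library gave 4 to 4 called at 0.5 h, 5 to 5 at 1 h, 3 to 4 at 3 h, 0 to 1 at 6 h, 0 to 1 for CT23 against CT17, 0 to 1 for 1 h against 0.5 h, 4 to 4 for 3 h against 1 h and 0 to 2 for 6 h against 3 h. In the Npas4 experiment it gave 5 to 6 for light in wild type, 5 to 5 in null, 0 to 0 for the difference between genotypes, 0 to 1 for null in the dark and 0 to 0 in light. Changes of direction involved log2 values that were not called. With the suffix term these were Nab1 0.065 at 1 h, 0.14 at 3 h, 0.080 at CT23 and 0.023 between 1 h and 0.5 h, Egr2 -0.18 at CT23 and -0.30 between 1 h and 0.5 h, and Egr1 0.037 between 1 h and 0.5 h. With no batch term they were Nab1 0.042 at 3 h and Egr2 -0.13 between 1 h and 0.5 h. Batch 2 alone gave Nab1 0.0095 at 6 h, and summed libraries gave Nab1 0.0090 at 3 h and Egr2 -0.075 between 1 h and 0.5 h. Without the 3 libraries richest in meningeal markers, Egr2 was -0.0055 at CT23, and between 1 h and 0.5 h Egr2 was -0.030 and Egr3 -0.079. Leaving out 1 library moved Nab1 from -0.061 to 0.025 at 3 h, from -0.23 to 0.0030 at 6 h and from -0.12 to 0.11 at CT23. It moved Egr2 from -1.004 to 0.62 and Egr4 from -0.39 to 0.72 at CT23, Egr3 from -0.040 to 0.52, Egr4 from -1.29 to 0.40 and Nab2 from -0.12 to 0.37 at 6 h. Between 1 h and 0.5 h it moved Egr2 from -0.063 to 0.041 and Egr3 from -0.041 to 0.22, and for null in the dark it moved Egr3 from -0.34 to 0.78. The cause was not tested. Of all genes, 1218 were called at 1 h, against 184 with the suffix term, 182 with no batch term, 2495 in batch 2 alone, 351 without the meningeal-rich libraries and 2209 with the replicate block. At 3 h these were 1664, against 471, 462, 2809, 538 and 2696, and between 1 h and 0.5 h 1056, against 72, 71, 3164, 123 and 2318. At 6 h 146 were called, against 240 with DESeq2 and 226 with the block. For CT23 against CT17 it was 69, against 267 with DESeq2 (148 higher, where edgeR had 30), 39, 43, 1710, 37 and 141 in the order above, and 341 with summed libraries. Between 6 h and 3 h it was 77, against 46 with no batch term. The replicate block gave 755 for light in wild type against 386, 452 in null against 234, 463 for null in the dark against 113 and 227 in light against 70. DESeq2 gave 254 and 161 for the last pair and 11 for the difference between genotypes, against 2, which was 1 with other size factors. Fitting only the groups compared gave 141 for light in null, 35 for null in the dark and 119 in light. The replicate block changed the calls of Nab1 in wild-type light (0.26) and Egr4 at 3 h (1.30) and no other member's call. Of 52 same-numbered pairs in the light-pulse experiment, 24 correlated above 0.1. The dark CT17 and 0.5 h libraries with the same full name all did (0.346 for 1, 0.511 for 1s, 0.122 for 2 and 0.506 for 2s), as did some of other names (0.357 for dark 1s with light 2s). A replicate block by full name on those 8 libraries, chosen after seeing the data, called 4 members, and Nab2 did not pass (0.40, edgeR adjusted p = 0.297). Depth limited Egr2 and Egr4 in the dark most, where libraries held as few as 2 reads of Egr2.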
